A study of Mus musculus with 16 samples.

Results

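Basement membrane genes were described in brown fat (BAT), epididymal white fat (eWAT), inguinal white fat (iWAT) and liver of mice given sunitinib or vehicle. The set comprised 10 of the 24934 gene symbols found in the 4 deposited tables. They were the laminin chains Lama2, Lama4, Lama5, Lamb1, Lamb2 and Lamc1, the nidogens Nid1 and Nid2, perlecan (Hspg2) and hemicentin 2 (Hmcn2). The members were selected by symbol, with their vehicle levels and their sunitinib minus vehicle differences already known. Both quantities are therefore given as a description and carry no test of the set. All 10 members had a row in each table, and all 10 passed the filter on low values (a tissue mean rlog of 3 or more) in each of them.

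The animals were C57BL/6 mice of 24 weeks. One group received sunitinib, sold as Sutent, a drug that blocks several receptor tyrosine kinases, among them those for vascular endothelial and platelet-derived growth factors. The other group received vehicle. There were 2 sunitinib and 2 vehicle libraries in each tissue, made from total RNA of whole tissue, and the series text speaks of 8 mice with 4 per treatment. The sources used here do not give dose, route or duration. They also do not tie a library to a mouse, so any p-value reflects library-to-library spread alone, which may be technical. In such bulk samples fewer cells of a type and less RNA per cell cannot be told apart.

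Laminins are the sheet-forming glycoproteins of basement membranes, and each is a trimer of an α, a β and a γ chain. Nidogens link the laminin sheet to collagen IV. Perlecan is a large proteoglycan whose heparan sulfate chains hold growth factors, and hemicentins are extracellular proteins of the fibulin family found at tissue boundaries. In fat, a basement membrane surrounds each adipocyte and underlies the endothelium of its capillaries, and mature liver sinusoids have only a sparse one.

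Values are the authors' regularized log2 expression (rlog), which is shrunk towards each gene's mean, so that differences of genes with few reads are understated. The tissue markers went with the labels. Ucp1, the uncoupling protein of brown adipocytes, stood at 16.93 and 16.80 in the sunitinib libraries of BAT, against 16.68 and 16.46 in the vehicle libraries. In the white depots it lay between 4.66 and 7.58. Alb, the serum albumin gene made by hepatocytes, lay between 20.13 and 20.33 in the livers. Some libraries stood apart from their partners. Vehicle replicate 2 of BAT was high in skeletal muscle markers, with a log2 summed level of 15.14, against 11.16 in vehicle replicate 1 and 13.28 and 12.60 in the sunitinib libraries. In iWAT the muscle sum was 15.86 and 12.72 in the sunitinib libraries, against 17.66 and 16.23 in the vehicle libraries, so sunitinib replicate 2 was lowest. Sunitinib replicate 1 of eWAT was high in Myh11, the smooth muscle myosin, at 13.61, against 9.93 in its partner and 9.41 and 10.11 in the vehicle libraries. It was also high in Crisp1, which the epididymal epithelium secretes, at 12.66, against 5.98 in its partner and 6.21 and 6.05 in the vehicle libraries.

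Seen as percentiles among the genes tested in the same vehicle libraries, the members were high in fat and low in liver. Their median percentile was 87.2 in BAT, 94.4 in eWAT, 94.9 in iWAT and 24.1 in liver. Perlecan stood at percentile 96.3 in BAT, 99.6 in eWAT, 99.5 in iWAT and 51.3 in liver. Lama2, the α chain of muscle and peripheral nerve basement membranes, stood at percentile 51.6 in BAT, 82.4 in eWAT, 83.3 in iWAT and 4.78 in liver. Nid2 was at percentile 44.6 in BAT, against 93.8 in eWAT and 91.1 in iWAT. Each table was normalized on its own, so these are ranks within a table and not levels compared across tissues. The ranks carry no length correction, while coding lengths of the members ran from 3735 bases (Nid1) to 15300 (Hmcn2). They therefore do not rank level per length. No test was made of them.

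**Figure D1:**
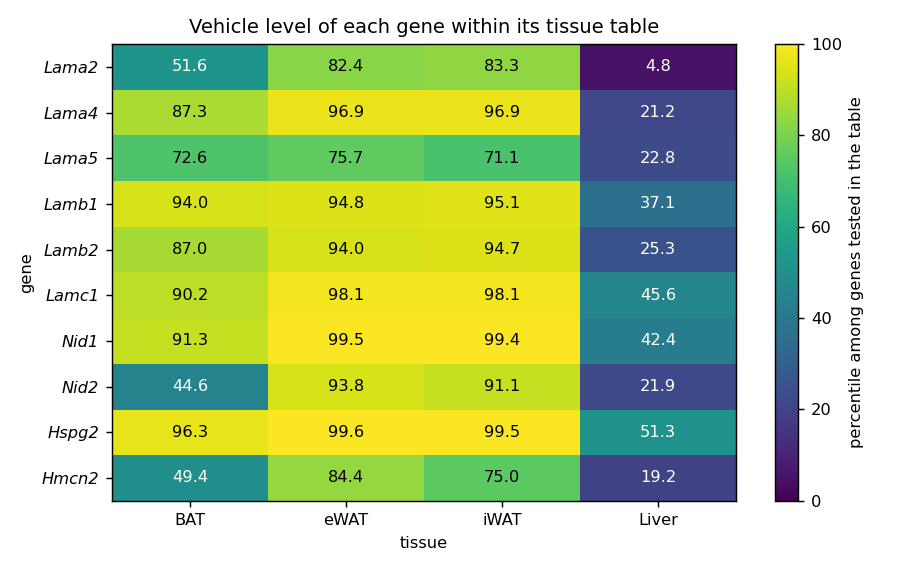
Percentile of each member's vehicle rlog mean among the genes tested in the same tissue, with members in rows and tissues in columns. All 10 members lay at percentile 71.1 or above in eWAT and iWAT, and at 51.3 or below in liver.

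To compare levels between members, the vehicle mean rlog was taken per kilobase of coding sequence, by subtracting log2 of that length. On that scale Nid1 was highest in all 4 tissues, at 8.43 in BAT, 12.50 in eWAT, 12.24 in iWAT and 5.06 in liver. Its rank in BAT rests on coding length. There Lamb1 had a vehicle mean of 10.82, against 10.33 for Nid1. The longest transcript of Lamb1 was also shorter, at 5784 against 6091 bases, so Nid1 was not highest in BAT by transcript length. By coding length in eWAT, Nid1 was followed by Hspg2 at 10.76, Lamc1 at 10.38, Lama4 at 9.75 and Nid2 at 9.30. Lamb1 at 9.12 and Lamb2 at 8.98 came next, with SDs of 0.13 and 0.04 between the vehicle libraries. Lama2 at 6.81, Hmcn2 at 6.26 and Lama5 at 6.09 were lowest, and Lama5 had an SD of 0.59. The order in iWAT had the same first 4 members, and Hmcn2 was last at 5.62. In BAT Lamb1 at 8.36 lay beside Nid1, and Hmcn2 was last at 3.41. In liver Lamc1 at 4.91 lay beside Nid1, and Lama2 was last at 0.25. Neighbours in these orders whose vehicle libraries overlapped were Nid1 and Lamb1 in BAT, Hmcn2 and Lama5 in eWAT, and Nid2 and Lamb2 in liver, and there were 0 such pairs in iWAT.

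Sunitinib minus vehicle differences of the members lay mostly below 0 in both white depots, were mixed in BAT and lay between −0.13 and 0.12 in liver. In eWAT 7 of 10 members had both sunitinib libraries below both vehicle libraries and 1 had both above, beside 26.8% and 27.0% of all genes tested. In iWAT these counts were 7 below and 0 above, beside 26.4% and 24.0% of all genes. In BAT 0 members were below and 6 were above, beside 24.0% and 26.2% of all genes. In liver 5 were below and 0 above, beside 19.2% and 18.3% of all genes. The median difference over the 10 members was 0.09 in BAT, −0.25 in eWAT, −0.42 in iWAT and −0.04 in liver, against a median over all genes within 0.01 of 0 in every tissue. The members were chosen with these differences known, so the counts describe the set and nothing is read from them. In 6 members both white depots had the sunitinib libraries below the vehicle libraries, which is 85.7% of the 7 such members in each depot. Over the 14352 genes tested in both depots, 1805 were below in both, which is 44.3% of those below in eWAT and 47.7% of those below in iWAT.

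**Figure D2:**
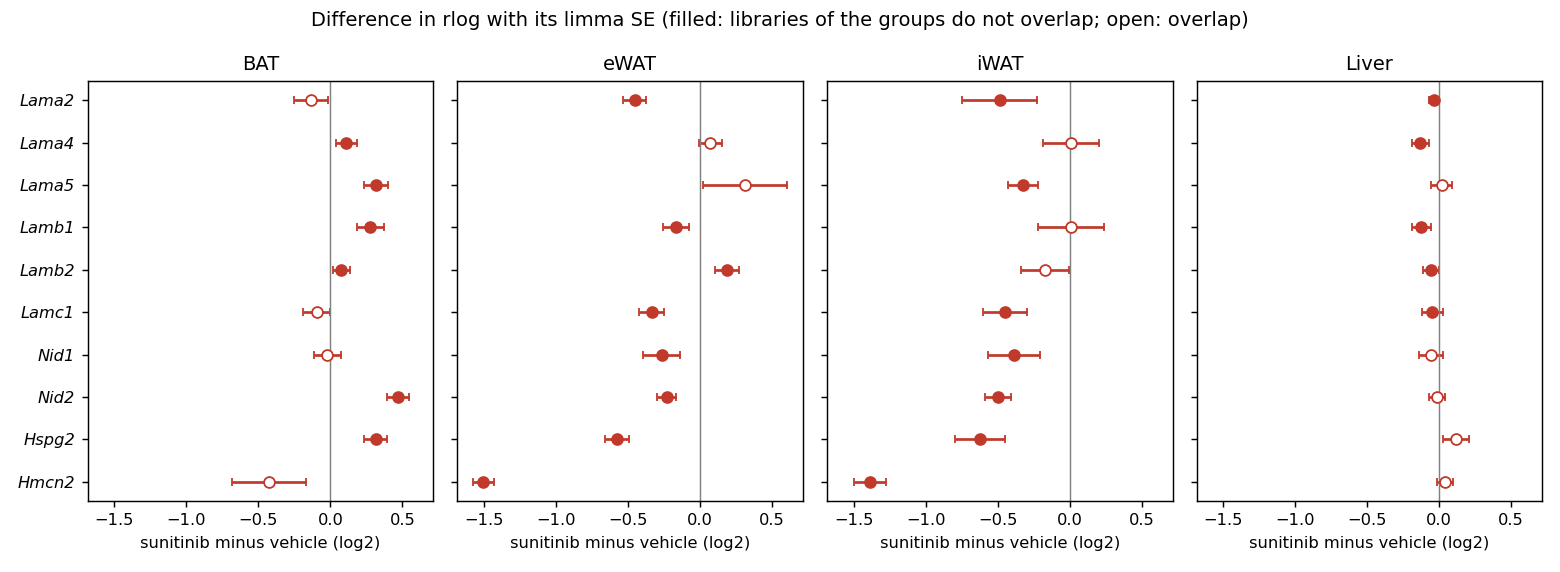
Sunitinib minus vehicle difference of each member (log2, ± SE of the limma fit, 2 libraries a group) in the 4 tissues, filled where the libraries of the groups did not overlap and open where they did. Hmcn2 lay at −1.50 in eWAT and −1.39 in iWAT, the other members between −0.62 and 0.31 in these depots.

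By limma's moderated test with Benjamini-Hochberg adjustment over all genes tested, 2 members were past an adjusted p of 0.05 in eWAT, Hspg2 and Hmcn2, both lower, beside 2.06% of all genes lower and 0.277% higher. In BAT 0 members passed, beside 0% of all genes in either direction. In iWAT 0 members passed, also beside 0% of all genes in either direction. In liver 0 members passed, beside 0.0726% of genes lower and 0.121% higher. At an unadjusted limma p under 0.05 the members numbered 4 in BAT, 5 in eWAT, 5 in iWAT and 1 in liver, beside 16.1%, 20.1%, 12.7% and 8.64% of all genes in the same order. Without the library that stood apart (vehicle replicate 2 of BAT, sunitinib replicate 1 of eWAT, sunitinib replicate 2 of iWAT) 1 member passed in each of these tissues, beside 5.03% of all genes in BAT, 6.32% in eWAT and 4.91% in iWAT. Such fits have 1 residual degree of freedom and assume that the lone library varies like the others. Sunitinib iWAT had the widest spread between replicates. Over all genes, the SD of the difference between its libraries was 0.590, against 0.224 for vehicle iWAT.

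Hemicentin 2 had the largest difference of the set in both white depots. In eWAT it stood at 8.70 and 8.69 in the sunitinib libraries, against 10.13 and 10.27 in the vehicle libraries. The iWAT values of Hmcn2 were 8.25 and 8.08 in the sunitinib libraries, against 9.57 and 9.54 in the vehicle libraries. The groups were separated by gaps of 1.43 and 1.29, far more than the libraries of a group differed. The differences were −1.50 ± 0.07 in eWAT and −1.39 ± 0.11 in iWAT, which places the sunitinib level at 0.352 and 0.383 times the vehicle level. Its percentile among the genes tested was 62.1 in sunitinib eWAT against 84.4 in vehicle eWAT, and 52.0 in sunitinib iWAT against 75.0 in vehicle iWAT. In BAT it stood at 6.85 and 6.98 in the sunitinib libraries, against 6.95 and 7.74 in the vehicle libraries, with the high value in the library that was also high in muscle markers. Pi16, a fibroblast marker, stood at 7.38 in each sunitinib library of BAT, against 7.18 and 8.10 in the vehicle libraries, and was high in the same one. Without that library the difference in BAT was −0.03, against −0.43 ± 0.26 with it. In liver it stood at 5.05 and 4.97 in sunitinib libraries, against 4.95 and 4.99 in vehicle libraries, and the groups overlapped. The eWAT call of Hmcn2 was lost when either vehicle library was left out, with limma adjusted p-values of 0.218 and 0.257, in fits with 1 residual degree of freedom where 0% of all genes passed.

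Perlecan was lower in both white depots and higher in BAT. In eWAT Hspg2 stood at 13.88 and 13.93 in the sunitinib libraries, against 14.48 and 14.47 in the vehicle libraries. Its iWAT values were 13.92 and 13.62 in the sunitinib libraries, against 14.39 and 14.40 in the vehicle libraries. The vehicle libraries of each depot were within 0.02 of each other, and no sunitinib library reached them. The difference was −0.58 ± 0.08 in eWAT and −0.62 ± 0.17 in iWAT, where the level was 0.650 times that of vehicle. In BAT it stood at 11.70 and 11.80 in the sunitinib libraries, against 11.52 and 11.36 in the vehicle libraries, a difference of 0.31 ± 0.08 with no overlap. In liver it stood at 7.74 and 7.58 in the sunitinib libraries, against 7.63 and 7.46 in the vehicle libraries, and the groups overlapped. The call in eWAT lay at the threshold with a limma adjusted p of 0.0491. It was lost under quantile normalization (limma adjusted p = 0.0618), under median centring (0.0567) and without any one of the 4 libraries, where adjusted p lay between 0.0862 and 0.290.

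Promoters of the 2 members past the test in eWAT are shown to let their base composition be read, from RefSeq on build GRCm38.p6, with 250 bases before and 50 after the annotated start. The authors' build was mm9, so these windows are not coordinates of the deposited tables. Capitals mark the GC box (GGGCGG, either strand) and the CCAAT box (either strand). The Hspg2 window is chr4:137468553-137468852 and the Hmcn2 window chr2:31314082-31314381, both on the plus strand.
Hspg2: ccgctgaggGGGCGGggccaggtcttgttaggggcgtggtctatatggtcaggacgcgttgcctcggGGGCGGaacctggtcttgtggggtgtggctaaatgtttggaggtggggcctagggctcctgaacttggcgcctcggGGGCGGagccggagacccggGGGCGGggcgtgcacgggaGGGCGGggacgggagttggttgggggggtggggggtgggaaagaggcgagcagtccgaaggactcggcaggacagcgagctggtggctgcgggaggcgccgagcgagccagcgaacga
Hmcn2: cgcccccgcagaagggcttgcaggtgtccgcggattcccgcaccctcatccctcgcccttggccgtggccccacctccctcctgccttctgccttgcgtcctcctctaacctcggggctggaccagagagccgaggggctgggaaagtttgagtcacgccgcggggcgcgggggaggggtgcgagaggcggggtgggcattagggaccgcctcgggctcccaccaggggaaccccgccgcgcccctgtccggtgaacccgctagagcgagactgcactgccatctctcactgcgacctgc
The Hspg2 window held 5 GC boxes and that of Hmcn2 held 0, while their GC contents were 70.3% and 70.7%, against a median of 52.7% over 32851 mouse promoters of this length. Of the 10 members 7 matched the promoter table, and Lama4, Lamc1 and Nid2 are named only. A GC box was present in 5 of the 7 windows, beside 35.7% of all promoters. A CCAAT box was present in 2, those of Lamb1 and Nid1, beside 37.4%, and TATAAA in 0, beside 13.6%. Of the members whose windows held a GC box, Lama5 had 4, Lamb1 had 2, and Lama2 and Nid1 had 1 each. These letters describe the windows and say nothing of which factor binds them.

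The nidogens split in BAT. Nid2 stood at 7.48 and 7.55 in the sunitinib libraries of BAT, against 6.98 and 7.10 in the vehicle libraries, a difference of 0.47 ± 0.08. Nid1 stood at 10.20 and 10.42 in the sunitinib libraries, against 10.27 and 10.39 in the vehicle libraries, and overlapped. In the white depots both nidogens were lower. Nid2 stood at 11.10 and 11.18 in sunitinib eWAT, against 11.36 and 11.39 in vehicle eWAT. In iWAT it stood at 10.50 and 10.43 in the sunitinib libraries, against 10.94 and 10.98 in the vehicle libraries, a difference of −0.50 ± 0.09. Neither depot's groups overlapped. Nid1 stood at 14.09 and 14.18 in sunitinib eWAT, against 14.55 and 14.25 in vehicle eWAT. Its iWAT values were 13.93 and 13.58 in the sunitinib libraries, against 14.13 and 14.14 in the vehicle libraries. The differences of Nid1 were −0.27 ± 0.13 and −0.39 ± 0.18, with gaps of 0.07 and 0.21 between the groups. Nid1 made up most of the nidogen level per coding kilobase, with 88.2% and 89.2% in the sunitinib libraries of BAT against 91.7% in each vehicle library.

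Among the α chains, Lama2 was lower and Lama4 nearly level in the white depots. Lama2 stood at 9.60 and 9.57 in sunitinib eWAT, against 10.13 and 9.95 in vehicle eWAT, a difference of −0.45 ± 0.08 with a gap of 0.35. In iWAT it stood at 10.002 and 9.30 in the sunitinib libraries, against 10.20 and 10.07 in the vehicle libraries, a difference of −0.48 ± 0.26 with a gap of 0.07. The low iWAT value belongs to sunitinib replicate 2, and without it the difference was −0.13. That library had the least muscle signal, and Lama4, Lamb1 and Nid1 were also lower in it than in its partner. The part of muscle in the Lama2 values was not tested. Lama4, the α chain of endothelial and adipocyte basement membranes, stood at 12.31 and 12.22 in sunitinib eWAT, against 12.26 and 12.13 in vehicle eWAT. In iWAT it stood at 12.46 and 11.96 in the sunitinib libraries, against 12.20 in each vehicle library. The groups overlapped in both depots, with differences of 0.07 ± 0.08 and 0.01 ± 0.20, and the sign in iWAT turned under median centring. Lama5, the widely expressed α chain of mature epithelial and vessel basement membranes, stood at 9.72 and 10.05 in sunitinib eWAT, against 9.15 and 9.99 in vehicle eWAT. Its groups overlapped there, and vehicle replicate 1 set the sign, since the difference was −0.11 when it was left out and 0.31 ± 0.29 with it. In iWAT it stood at 8.94 and 9.04 in the sunitinib libraries, against 9.36 and 9.27 in the vehicle libraries, a difference of −0.32 ± 0.10. In BAT it stood at 9.07 and 8.99 in the sunitinib libraries, against 8.80 and 8.63 in the vehicle libraries, a difference of 0.32 ± 0.08 and the opposite sign to iWAT.

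Among the β and γ chains, Lamc1, the partner of most laminin trimers, was lower in the white depots, where the differences of the β chains lay between −0.17 and 0.19. Lamc1 stood at 12.40 and 12.22 in sunitinib eWAT, against 12.65 and 12.64 in vehicle eWAT, a difference of −0.34 ± 0.09. The same chain stood in iWAT at 12.38 and 12.06 in the sunitinib libraries, against 12.72 and 12.61 in the vehicle libraries, a difference of −0.45 ± 0.15. Neither depot's groups overlapped, and in BAT they did, with a difference of −0.09 ± 0.09. Lamb1, the broadly expressed β chain, stood at 11.35 and 11.48 in sunitinib eWAT, against 11.67 and 11.49 in vehicle eWAT, a difference of −0.17 ± 0.09 with a gap of 0.01. In iWAT it stood at 11.97 and 11.35 in the sunitinib libraries, against 11.65 in each vehicle library, so that the sunitinib libraries lay on either side. In BAT it stood at 10.98 and 11.21 in the sunitinib libraries, against 10.85 and 10.79 in the vehicle libraries, a difference of 0.28 ± 0.09. Lamb2, the β chain of synaptic, kidney and vessel basement membranes, stood at 11.69 and 11.51 in sunitinib eWAT, against 11.39 and 11.44 in vehicle eWAT. Its difference was 0.08 ± 0.06 in BAT, 0.19 ± 0.08 in eWAT and −0.17 ± 0.17 in iWAT. It was the member with both sunitinib libraries above both vehicle libraries in eWAT.

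**Figure D3:**
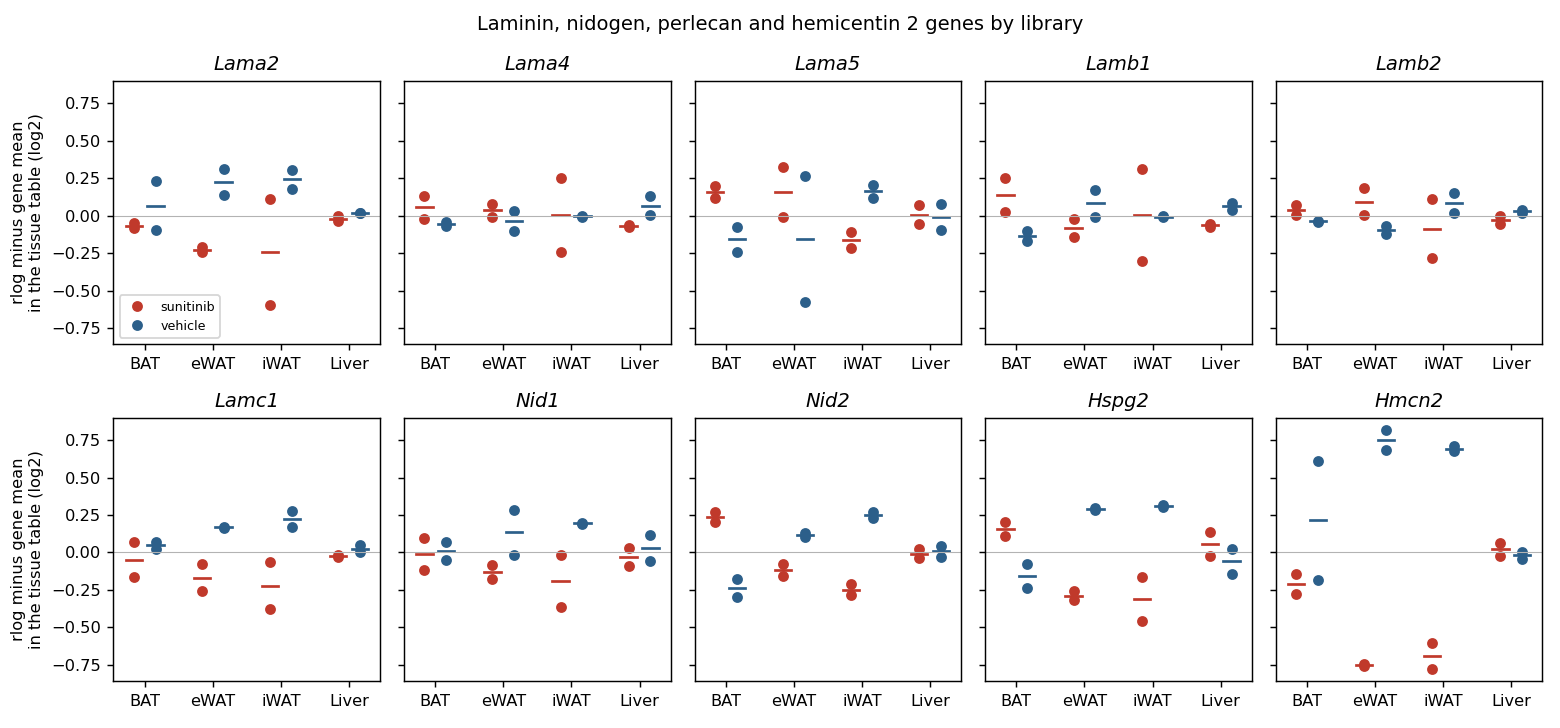
The rlog value of each member in every library minus its mean over the 4 libraries of the tissue (log2), 1 panel per gene, with sunitinib left of vehicle. Points are libraries and dashes are group means. Hmcn2 shows the widest gap between the groups in eWAT and iWAT, at 1.43 and 1.29.

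In liver the differences of all 10 members lay between −0.13 and 0.12. Lamb1 stood at 6.45 and 6.47 in the sunitinib libraries, against 6.56 and 6.61 in the vehicle libraries. Lama4 stood at 5.04 and 5.03 in the sunitinib libraries, against 5.11 and 5.23 in the vehicle libraries, a difference of −0.13 ± 0.06. These were the liver members with the widest gaps, of 0.09 and 0.06, and the other 3 without overlap, Lama2, Lamb2 and Lamc1, had gaps of 0.02 each. Low values are shrunk most, so that small liver differences cannot be set against those of fat.

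The balance of chains was then read per library, from levels per coding kilobase turned back to a linear scale. The summed α members over Lamc1 gave ratios of 1.17 and 1.07 in the sunitinib libraries of BAT, against 0.949 and 0.965 in the vehicle libraries. In eWAT they were 0.972 and 1.06 in the sunitinib libraries, against 0.802 and 0.770 in the vehicle libraries. In iWAT they were 1.08 and 0.953 in the sunitinib libraries, against 0.748 and 0.795 in the vehicle libraries. In all 3 fat depots the α ratio was higher with sunitinib and the groups did not overlap, and in liver they were 0.378 and 0.369 with sunitinib against 0.384 and 0.377 with vehicle. The summed β members over Lamc1 lay the same way. They were 2.63 and 2.52 in sunitinib BAT, against 2.08 in each vehicle library. In eWAT they were 0.970 and 1.07 in the sunitinib libraries, against 0.815 and 0.782 in the vehicle libraries, and in iWAT 1.17 and 1.02 in the sunitinib libraries, against 0.831 and 0.856 in the vehicle libraries. In liver the β ratio ran the other way without overlap, at 0.840 and 0.843 with sunitinib, against 0.876 and 0.871 with vehicle. These ratios come from values that were known when the members were chosen, so they are a description too.

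Lama4 made up most of the α members' level in fat, with 85.5% and 83.3% in sunitinib eWAT against 84.1% and 80.7% in vehicle eWAT. In iWAT its share was 87.1% and 86.5% with sunitinib, against 82.4% and 83.5% with vehicle, without overlap. The Lama2 share was 7.63% and 7.73% in sunitinib eWAT, against 11.2% and 10.4% in vehicle eWAT, and 9.23% and 7.95% in sunitinib iWAT, against 11.96% and 11.1% in vehicle iWAT. Thus Lama2 took the smaller share with sunitinib in both white depots. The Lamb1 share of the β members was 68.0% and 70.4% in sunitinib BAT, against 66.7% and 65.8% in vehicle BAT, and 43.7% and 48.9% in sunitinib eWAT, against 54.4% and 50.5% in vehicle eWAT. In iWAT the Lamb1 share was 56.3% and 52.5% with sunitinib, against 50.1% and 52.4% with vehicle. It lay higher with sunitinib in BAT and iWAT and lower in eWAT, and the groups did not overlap, though in iWAT the nearest libraries were almost equal. These shares include the libraries that stood apart, whose part in them was not tested.

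**Figure D4:**
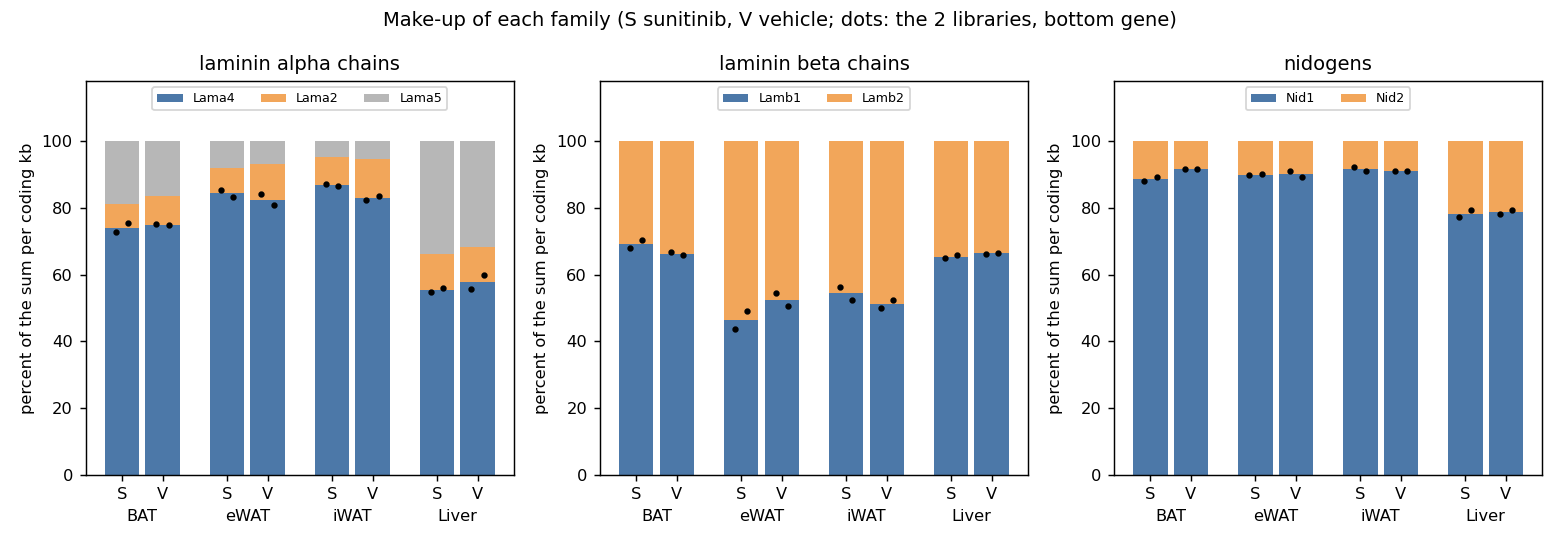
Mean share (percent) of each gene within the α, β and nidogen members, from levels per coding kilobase on a linear scale, with sunitinib (S) left of vehicle (V) in each tissue. Bars are means of 2 libraries, and dots give the share of the bottom gene in each library, which for Lama4 in iWAT is 87.1% and 86.5% with sunitinib against 82.4% and 83.5% with vehicle.

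Markers of the cell types that could carry basement membranes differed beside the members. Of 10 endothelial markers, 10 were higher in BAT, with a median difference of 0.36, 10 were lower in eWAT (−0.38), 10 were lower in iWAT (−0.44) and 9 were lower in liver (−0.10). Their summed linear levels ranged from 11462 to 12076 in sunitinib BAT, against 7732 to 10045 in vehicle BAT. They ranged from 6138 to 6396 in sunitinib eWAT, against 7087 to 9704 in vehicle eWAT, and from 8195 to 8398 in sunitinib iWAT, against 10499.7 to 10865 in vehicle iWAT. Hspg2 and Nid2, higher in BAT and lower in both white depots without overlap, had the signs of the endothelial sum there. In vehicle eWAT the sum was 7087 and 9704, with Hspg2 at 14.48 and 14.47 and Nid2 at 11.36 and 11.39. In vehicle BAT the sum was 10045 and 7732, with Hspg2 at 11.52 and 11.36 and Nid2 at 6.98 and 7.10. Lama4 had differences of 0.07 in eWAT and 0.01 in iWAT, where its groups overlapped. It was higher in BAT (0.11, gap 0.02) and lower in liver (−0.13, gap 0.06) without overlap, the signs of the endothelial medians there. The part of endothelial cells in the members' values was not tested.

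Macrophage and fibroblast marker sums were lower in the white depots too, without overlap. The 6 macrophage markers tested had a median of −0.80 in eWAT and −0.62 in iWAT. In eWAT 4 of them fell past the limma test, beside 2.06% of all genes. Their sums were 6522 to 6701 in sunitinib eWAT, against 11605 to 12053 in vehicle eWAT. Fibroblast marker sums were 43631 to 47361 in sunitinib eWAT, against 59822 to 61503 in vehicle eWAT, and 41790 to 52820 in sunitinib iWAT, against 65256 to 78585 in vehicle iWAT. By gene, the fibroblast list had a median of −0.18 in eWAT, where 5 lay lower and 3 higher. Those higher were Pdgfra (0.02), Pi16 (0.36) and Dpp4 (0.39). Its median in iWAT was −0.56, where 7 lay lower and 1 higher. The pericyte and smooth muscle list had a median of −0.29 in iWAT and 0.04 in eWAT, where 4 lay lower and 4 higher. The lower ones in eWAT were Rgs5 (−0.70), Pdgfrb (−0.54), Notch3 (−0.38) and Cspg4 (−0.25). The higher ones were Acta2 (0.33), Tagln (1.20), Myh11 (2.01) and Cnn1 (2.73), each highest in sunitinib replicate 1, which stood apart. Of 8 adipocyte markers 1 fell past the limma test in eWAT, beside the same 2.06% of all genes. Their medians were −0.04 in eWAT and −0.12 in iWAT, with sums that overlapped between the groups in both. In BAT adipocyte sums were 185174 to 191118 with sunitinib, against 169113 to 178467, though 4 markers lay higher and 4 lower. Brown adipocyte sums there were 167877 to 179113, against 132559 to 148286, with 3 markers higher and 2 lower. Macrophage sums in BAT were 467 to 472, against 498 to 600.5. Fibroblast sums and pericyte and smooth muscle sums overlapped in BAT. No marker list summed to 0 in any library. The part of these cell types in the members' values was not tested.

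The other genes of basement membranes were taken from 5 lists with 59 genes. In eWAT 57 were tested and 2 fell past the limma test, 0 rose, beside 2.06% of all genes lower and 0.277% higher. Lamb3, the β chain of epithelial laminin, stood at 8.31 and 8.33 in the sunitinib libraries, against 8.81 and 8.90 in the vehicle libraries, a difference of −0.54 ± 0.07 with a limma adjusted p of 0.0349. Sdc3, a cell surface heparan sulfate proteoglycan, stood at 10.27 in each sunitinib library, against 10.92 and 11.11 in the vehicle libraries, a difference of −0.74 ± 0.08 with a limma adjusted p of 0.0302. In both genes the groups did not overlap. Both calls were lost when either vehicle library was left out, with limma adjusted p between 0.218 and 0.291, and that of Lamb3 also without the filter on low values (0.0542). In BAT 0 of 55, in iWAT 0 of 57 and in liver 0 of 47 genes of these lists passed the limma test. The share of all genes was 0% in BAT and iWAT, and in liver 0.0726% lower and 0.121% higher. At an unadjusted limma p under 0.05 the list genes numbered 11 in BAT, 23 in eWAT, 16 in iWAT and 6 in liver. Beside these stood 16.1%, 20.1%, 12.7% and 8.64% of all genes in the same order.

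By list, the other basement membrane proteins, which include collagen IV chains, had a median difference of −0.37 in iWAT, where 19 of 19 tested lay lower and 0 passed, and −0.21 in eWAT, where 12 of 20 lay lower. Their medians were near 0 in BAT and liver. Collagen IV split in eWAT. Col4a1 (−0.36) and Col4a2 (−0.48) lay lower, and Col4a3 (0.42), Col4a4 (0.49), Col4a5 (0.21) and Col4a6 (0.68) higher. The laminin and perlecan receptors had a median of 0.09 in BAT, −0.10 in eWAT and −0.30 in iWAT. The dystrophin complex, which binds Lama2-bearing laminin at the muscle surface, had a median of −0.56 in iWAT, where 10 of 10 lay lower beside the lower muscle sums, and 0.17 in eWAT. The genes that assemble and edit heparan sulfate had medians of −0.03 in BAT, −0.07 in eWAT and −0.20 in iWAT. The 6 other laminin chains and hemicentin had a median of 0.27 in eWAT, in which epithelial and epididymal duct markers summed to 2798 to 8789 with sunitinib, against 633 to 1268 with vehicle. Mesothelial markers had a median of 0.53 there, with 6 of 6 higher. The part of those cells in this value was not tested.

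**Figure D5:**
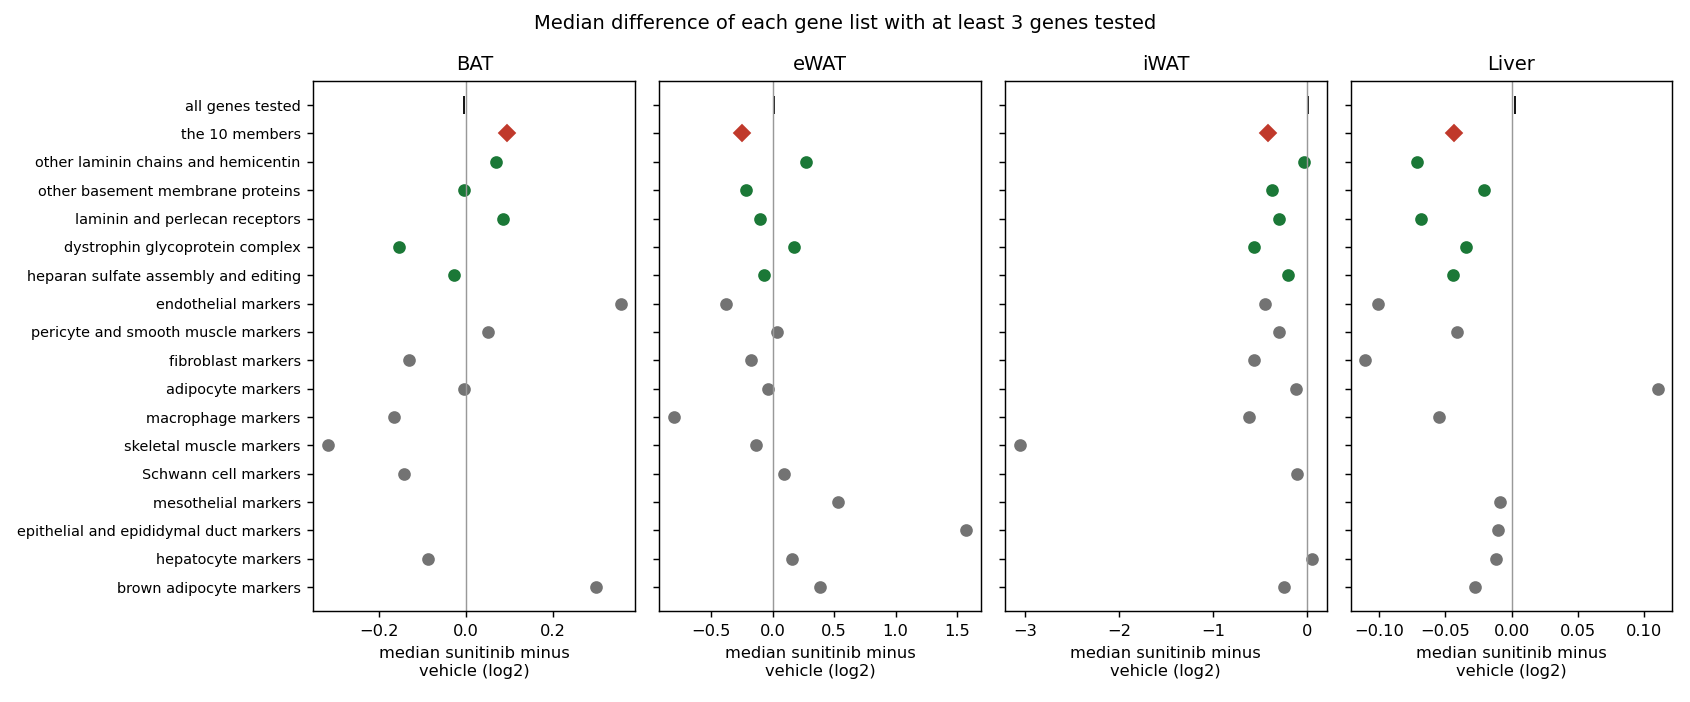
Median sunitinib minus vehicle difference (log2, horizontal axis, own scale in each panel) over all genes tested (tick), the 10 members (diamond), the 5 basement membrane lists and the 11 marker lists (circles) in each tissue, for lists with at least 3 genes tested. In iWAT the medians of all 5 basement membrane lists lie below 0, and the muscle markers lie farthest out at −3.06.

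Single genes of these lists that did not pass are given as values. In BAT those of smallest p were Sdc4, a heparan sulfate proteoglycan of focal adhesions (0.58 ± 0.13), Itga6, the α chain of laminin-binding integrins (0.59 ± 0.15), and Egfl7, an endothelial matrix protein (0.31 ± 0.09). In eWAT they were Fbln1 (0.41 ± 0.06) and Fbln2 (−0.56 ± 0.09), fibulins that bind basement membrane proteins, and Lama1, the α chain of embryonic laminin (0.52 ± 0.09). In iWAT they were Itga7, a muscle laminin receptor chain (−0.70 ± 0.12), Itga6 (−0.58 ± 0.10) and the collagen IV chain Col4a2 (−0.75 ± 0.15). In liver they were Ntn4, a laminin-related netrin (−0.36 ± 0.09), Col4a2 (0.31 ± 0.09) and Lamb3 (−0.22 ± 0.08). Itga6 thus stood above vehicle in BAT and below it in iWAT, as Nid2, Hspg2 and Lama5 did.

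The likeness of expression patterns was measured by the root mean square (RMS) difference of rlog values centred within each table, over 16 libraries. Of the members, Lamc1 lay nearest to the mean of the other 9, at 0.0766, followed by Nid1 at 0.0884. Hmcn2 lay farthest at 0.475 and Lama5 next at 0.276. This distance counts the size of a change as well as its direction. The differences of Hmcn2 were −1.50 in eWAT and −1.39 in iWAT, against means over the 10 members of −0.30 and −0.43. Among 11103 other genes tested in all 4 tables, whose median distance to the mean of the members was 0.178, the nearest 10 were 1810011H11Rik at 0.0485, then Lrpap1, Ric3, Tmem109, Gyg, Snrnp35, Optn, Abhd12, Tnfsf12 and Fam114a1 at 0.0601. Of these 10 genes, 8 were also among the nearest 10 without sunitinib replicate 1 of eWAT.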

How the data were processed

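RNA sequencing of total RNA was deposited by the authors as 1 table of log2 values (regularized log, per the labels) for each tissue. The submitters' processing notes name TopHat2 2.1.1, DESeq2, bedtools, bcl2fastq 2.17.1.14 and build mm9, with no role or order stated. The sources used here do not give the annotation, the counting settings or the use of strand. With no read totals in the tables, depth is unknown, so there are no counting intervals. Groups came from sample titles, where sunitinib livers are numbered 3 and 4, while their descriptions number them 1 and 2. No library's values were identical to another's.

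The members and lists were chosen with earlier results of these data known. The test kept genes whose mean over a tissue's 4 libraries reached 3 (BAT 13044 of 19664 genes, eWAT 15526 of 22972, iWAT 14916 of 22103, liver 12394 of 18566). Separate fits per tissue used R 4.3.3 and limma 3.58.1 with a variance trend, 2 residual degrees of freedom and 3.28, 2.93, 2.19 and 7.18 prior degrees of freedom, two-sided, with Benjamini-Hochberg adjustment. The fit was also run on simulated data with 200 changed genes per tissue, and its outcome is not given here. An exact permutation test of 2 against 2 libraries cannot go below p = 0.333 and was not used. Coding lengths came from GENCODE M21, since the deposited tables give none, and ranged from 3735 bases (Nid1) to 15300 (Hmcn2). Promoters came from RefSeq, build GRCm38.p6.

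Named genes were all members, all list genes past the test, and per tissue the 3 list genes of smallest p that did not pass. To these came the 10 genes nearest to the members' mean, and single markers that define a list or show a library standing apart. Alternatives were no filter, a mean of at least 5, median centring, quantile normalization, no trend, robust variance, a replicate block and leaving out each library. Other transcript lengths, a crossed block, a liver block on description numbers, the set without Hmcn2 and the chain ratios under other settings were added after the data were seen.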

Additional observations from a re-analysis of the deposited data

Results flagged for a closer look

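Several genes had a difference of one sign in every library of one tissue and of the other sign in another, each sunitinib library lying on one side of both vehicle libraries. These contrasts between tissues were not tested, and each table was normalized on its own. Low values are shrunk most, so the sizes of contrasts with liver cannot be read as differences in effect. Values are the difference in the first tissue minus that in the second, in log2 units. Hspg2 differed by 0.89 between BAT and eWAT and by 0.94 between BAT and iWAT. Nid2 differed by 0.70 between BAT and eWAT and by 0.97 between BAT and iWAT. Lama5 differed by 0.64 between BAT and iWAT. Lamb1 differed by 0.44 between BAT and eWAT and by 0.40 between BAT and liver. Lama4 differed by 0.25 between BAT and liver. Lamb2 differed by 0.13 between BAT and liver and by 0.25 between eWAT and liver. Of the listed genes, Itga6 differed by 1.18 between BAT and iWAT, and Col4a2 by −1.06 between iWAT and liver. The endothelial markers also had opposite signs, 10 of 10 higher in BAT and 10 of 10 lower in each white depot, and their part in these contrasts was not tested.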

How the results depend on the processing

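Of the member differences, those of Lama4 and Lamb1 in iWAT, both 0.01, turned sign under median centring, and no other did under median centring or quantile normalization. Filter and variance settings leave a fitted difference as it is. Leaving out a library turned the sign of member differences in 15 cases over 11 gene and tissue pairs, of which Lama5 in eWAT had the largest value as reported (0.31). The members' median ranged over the leave-one-out fits from −0.30 to −0.18 in eWAT and from −0.55 to −0.25 in iWAT, and was −0.15 in eWAT under quantile normalization. The count of members past the test was 1 in eWAT under quantile normalization and under median centring. Leaving out a library, it ranged from 0 to 4 in BAT, from 0 to 1 in eWAT and from 0 to 7 in iWAT, with 4 members without vehicle replicate 1 of BAT, beside 9.90% of all genes, and 7 without sunitinib replicate 1 of iWAT, beside 27.5% of all genes. These fits have 1 residual degree of freedom. List genes past the test ranged from 0 to 14 in BAT, from 0 to 9 in eWAT, from 0 to 27 in iWAT and from 0 to 4 in liver. In eWAT they numbered 6 with a mean of at least 5, beside 569 of all genes, and 6 without the trend. There were 5 with robust variance, beside 584 of all genes, and 5 with the replicate block, beside 678. The block called 0 members in BAT, 3 in eWAT and 0 in iWAT. In eWAT it also called 678 of the 15526 genes tested, so the 3 members are not read as a result about the set. Same-numbered libraries had correlated deviations of −0.256 in BAT, 0.224 in eWAT and 0.108 in iWAT. With only 2 pairs in a tissue such a value can neither show nor exclude a pairing. The crossed block in BAT called 0 members. In liver the titles number the groups differently and the descriptions number both 1 and 2. A block on the description numbers, added after the data were seen, called 0 members, 4 list genes and 757 of all genes, with correlated deviations of 0.435. Over all genes of eWAT, 210 passed without the filter, 569 with a mean of at least 5, 584 with robust variance and 678 with the block, against 363 as reported, and in liver 3 without the trend, against 24. The α and β ratios over Lamc1 kept their direction in each fat depot under quantile normalization and without any one library. Without length correction, 24 ranks of members within a tissue moved and 16 did not. With the longest transcript in place of coding length, 7 moved and 33 did not. Depth limits cannot be stated from rlog values.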

Other observations

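Hmcn2 had its own nearest genes, looked up after its values were seen. By the same RMS measure they were C3ar1, the receptor for complement C3a, at 0.212, Pcolce2, an enhancer of procollagen processing, at 0.237, and then Prps1, Lgals3 and Tlr8. The differences of C3ar1 were −0.13 in BAT, −1.17 in eWAT, −1.002 in iWAT and −0.02 in liver. Those of Pcolce2 were −0.24, −0.77, −1.28 and 0.01 in the same order. Without Hmcn2 the members' median was 0.11 in BAT, −0.23 in eWAT, −0.39 in iWAT and −0.05 in liver.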
